A study of Mus musculus with 48 samples.

Results

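The change described here is the one that took place between matched hours of 2 successive circadian cycles in NIH3T3 cells, a mouse embryo fibroblast line, after treatment with forskolin. It was read from 12 of the 48 arrays of an hourly time course, the 6 arrays of hours 20 to 25 after forskolin and the 6 arrays of hours 44 to 49. Each earlier array was paired with the array taken 24 h later, so that the hour of the cycle is the same in both windows if the period is 24 h. The difference of a gene is its mean log2 value at hours 44 to 49 minus its mean at hours 20 to 25. All 12 dishes held cells of the same line, grown to confluence in DMEM with fetal calf serum and given forskolin, and by the labels the windows differ in the time since treatment. Every hour was 1 dish and 1 array, and the 6 hours of a window stand in for replicates. The samples held no culture without forskolin, and the time since forskolin, the time at confluence and the age of the medium cannot be told apart. The labels do not say whether the dishes came from separate cultures, so that p-values measure the spread between these arrays, which may be technical.

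Forskolin activates adenylyl cyclase, raises cyclic AMP inside the cell and, through the factor CREB, turns on a burst of early response genes that include the period genes of the clock. A short exposure sets the clocks of cultured fibroblasts to a common phase, after which the clock genes cycle for several days while the cells remain in the same dish. Confluent fibroblasts stop dividing through contact inhibition, and as serum factors are used up they move towards quiescence, a reversible arrest in which genes of DNA synthesis and mitosis are low. A comparison of arrays 24 h apart sets the same hour of successive cycles side by side, as far as the period of the cells is that long.

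The arrays held 45037 probe sets besides controls, and 18193 genes were each represented by the probe set with the highest mean. Array medians ranged from 6.58 to 6.69 and upper quartiles from 13.20 to 13.26 on the log2 scale over the 12 arrays. The log2 difference between the 3′ and 5′ probe sets of β-actin, which rises with shorter RNA or cDNA, was 1.01 to 2.33 at hours 20 to 25 and 1.05 to 2.22 at hours 44 to 49, and exceeded 1.4 in 3 and 2 of the arrays. The BioB spike-in control ranged from 14.64 to 15 in the earlier window and from 14.39 to 14.78 in the later one. Counts with the β-actin difference in the fit, or without the arrays where it was high, are given with the results. The part of the BioB difference in the results was not tested. Of 16 fibroblast markers, 15 lay above the median probe set, and their summed level was 21.89 to 21.95 at hours 20 to 25 and 21.91 to 21.98 at hours 44 to 49 on the log2 scale. Of these Thy1 passed the test (-0.37 ± 0.04), and it missed it without hours 23 and 47 or 25 and 49. All 8 epithelial markers were below their array's median on every array, as were 7 of 8 skeletal muscle markers, 5 of 7 neuronal markers and 7 and then 6 of 7 endothelial markers, and none of these passed.

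Clock genes gave the reference for the comparison, since they are known to change with the hour of the cycle. The clock is a loop in which Arntl (Bmal1), Clock and Npas2 activate the Per and Cry repressors and the nuclear receptors Nr1d1 and Nr1d2, and in which Dbp, Tef, Hlf and Nfil3 carry the rhythm to other genes. Nr1d2 was between 14.32 and 14.71 (median 14.63) at hours 20 to 25 and between 14.54 and 14.76 (median 14.55) at hours 44 to 49. Per2 was between 13.06 and 14.10 (median 13.60) and then between 13.35 and 13.92 (median 13.63). For both genes the windows overlapped, and the differences were 0.02 ± 0.06 and 0.02 ± 0.20 (± is the standard error of the fit throughout). The pair differences of Per2 ran from 0.86 to -0.50, with 3 pairs higher and 3 lower, so its mean near 0 came from pairs of both signs. Arntl (-0.20 ± 0.15), Cry1 (0.25 ± 0.12), Cry2 (-0.04 ± 0.19), Per1 (-0.25 ± 0.19), Npas2 (0.31 ± 0.32), Nr1d1 (0.64 ± 0.41), Tef (0.56 ± 0.14) and Per3 (0.62 ± 0.15) did not pass the test either, with adjusted p-values from 0.119 for Per3 to 0.907 for Cry2. Per3 and Tef were higher in the later array of all 6 pairs.

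Of the clock genes, 4 passed the test. Over all genes, 3.08% passed the test as higher at hours 44 to 49 and 2.7% as lower, and of the 19 clock and clock output genes measured 3 were higher, 1 was lower and 15 did not pass. The shares over genes above the median probe set were 5.33% and 4.53%. Hlf went from 13.20 to 14.35 (median 13.84) up to 14.60 to 15.21 (median 14.96), a difference of 1.12 ± 0.13. Rora, an activator of Arntl, moved from a range of 13.70 to 13.95 into one of 14.53 to 14.59, by 0.69 ± 0.03. Of 5 other Rora probe sets above the median probe set, 1 passed as higher and none as lower. Nfil3, the repressor that competes with Dbp, Tef and Hlf at D-box elements, fell by 0.72 ± 0.08, from between 16.02 and 16.22 to between 15.19 and 15.59. For these 3 genes the windows did not overlap. Dbp rose by 0.94 ± 0.15 (adjusted p = 0.0364), though its windows overlapped, and it missed the test when any pair other than hours 21 and 45 was left out. Its other probe set above the median probe set did not pass the test. Hlf missed it without hours 23 and 47, and Nfil3 without hours 25 and 49. The median difference of the 19 genes was 0.02, and that of all probe sets was -0.004.

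**Figure D1:**
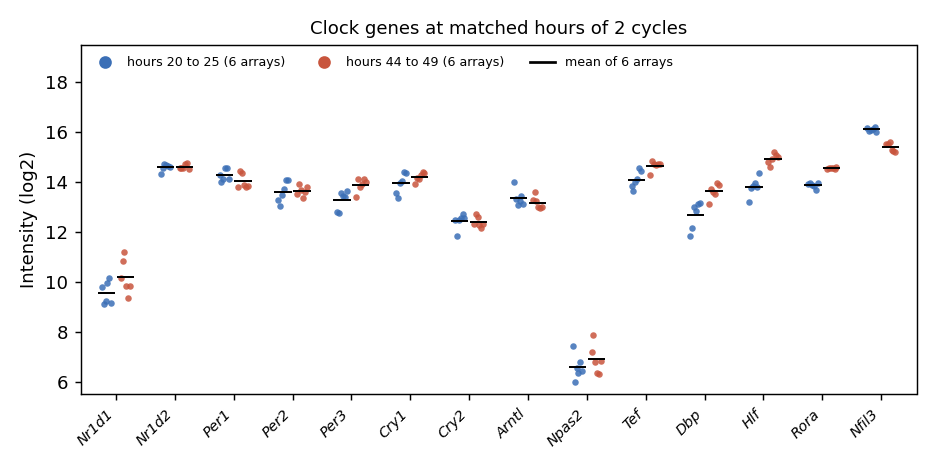
Log2 intensity of 14 clock and clock output genes at hours 20 to 25 (blue) and hours 44 to 49 (red). Each point is 1 array in order of time and each bar the mean of 6. Nr1d2 and Per2 overlap between the windows, whereas Hlf and Rora lie higher and Nfil3 lower at hours 44 to 49.

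Many genes outside the clock list passed the test. By limma's paired test over all probe sets, with Benjamini-Hochberg adjustment at 0.05, 949 probe sets (2.11%) were higher and 858 (1.91%) were lower at hours 44 to 49, and they belonged to 560 genes that rose and 491 that fell. All 1807 moved the same way in 6 of 6 pairs, and for 1611 of them the values of the windows did not overlap. Among all 45037 probe sets the windows did not overlap for 2696. The called probe sets were chosen by these same differences, so both counts are a description. Of those called, 933 (2.07% of all probe sets) differed by at least 1.5-fold, 494 upward and 439 downward, and 54 rose and 31 fell by at least 4-fold. Among the 10366 genes whose mean exceeded the median probe set, 5.33% were higher and 4.53% lower. The counts depended on single pairs. Without hours 20 and 44 there were 604 probe sets higher and 558 lower, without hours 22 and 46 there were 596 and 543, without hours 23 and 47 there were 386 and 360, without hours 24 and 48 there were 579 and 497, and without hours 25 and 49 there were 322 and 298. With the spread estimated from all 48 arrays the counts were 2850 and 2990, and without the 4 pairs that held an array with a β-actin difference over 1.4, which left 2 pairs, limma called 0 probe sets, with 6604 at an unadjusted p under 0.05. Of the 112 genes chosen by the naming rule that passed the test (the largest rises and falls, and at most 4 members of each list), 52 missed it without hours 25 and 49 and 17 to 41 without another pair. Leaving out a pair could not change a sign, since all 6 pairs of each gene went the same way.

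The steepest rises were in genes for secreted proteins, enzymes and receptors. Ccl8, a chemokine that attracts monocytes, lay between 5.88 and 8.04 (median 6.80) at hours 20 to 25 and between 11.81 and 12.50 (median 12.19) at hours 44 to 49. Its difference of 5.34 ± 0.31 was 40.5-fold (adjusted p = 0.00201). Inmt, a methyltransferase of tryptamine and related amines, rose from between 7.55 and 8.11 (median 7.94) to between 12.50 and 13.59 (median 13.25), by 5.28 ± 0.16 or 38.8-fold (adjusted p = 0.000614). Edn1, which encodes the vasoconstrictor peptide endothelin-1, went from 6.42 to 7.52 (median 6.83) up to 10.49 to 11.45 (median 11.13), an 18.5-fold rise. In all 3 genes every later array was above every earlier one.

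The other large rises formed no single class. Depp1, a target of FoxO factors, rose by 4.41 ± 0.24, Trim63, the ubiquitin ligase MuRF1 known from muscle wasting, by 3.92 ± 0.18, and Sort1, the sorting receptor sortilin, by 3.34 ± 0.23. Pgm5, a phosphoglucomutase relative found at cell adhesions, rose by 4.25 ± 0.45 and missed the test without hours 25 and 49. Adh1, an alcohol dehydrogenase that also oxidizes retinol, rose by 3.76 ± 0.27, and Plxdc1, a membrane protein with a plexin domain, by 3.72 ± 0.34. Ighm (3.33 ± 0.19), Itgb2 (3.37 ± 0.26) and Ear3 (3.42 ± 0.32) are known from blood cells, as the constant region of the immunoglobulin mu chain, the β2 subunit of leukocyte integrins and a ribonuclease of eosinophils. Of the other Ighm probe sets, the 1 above the median probe set also passed, by 1.58 ± 0.20. The rest had means of 5.32 to 5.61 and differences of -0.01 to 0. The probe set of Ear3 can bind transcripts of its near-identical relatives, so that the gene behind it is uncertain. Beside Ighm, Itgb2 and Ear3, the macrophage markers Itgam, Adgre1, Tyrobp and Ptprc stayed between means of 5.39 and 5.50 in both windows, at the floor of the arrays. In both windows 5 of the 7 macrophage markers were below their array's median on every array, and the summed level of the 7 macrophage markers was 10.45 to 11.09 at hours 20 to 25 and 10.47 to 11.04 at hours 44 to 49. Csf1r (-1.04 ± 0.61) and Cd68 (0.12 ± 0.16) did not pass. Lyz2 was the member that passed (0.44 ± 0.08), at means of 6.02 and 6.46 that lie below the median of all probe sets, and it missed the test when any pair other than hours 24 and 48 was left out.

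The deepest falls were led by Retnla and Vip, which reached the floor of the arrays. Retnla, a secreted protein of the resistin family, lay between 12.16 and 12.72 (median 12.52) at hours 20 to 25 and between 5.53 and 5.62 (median 5.55) at hours 44 to 49, below the median on every later array. It was therefore at least 56.4-fold lower, measured against the array medians (adjusted p = 4.4e-05). Vip, the precursor of vasoactive intestinal peptide and a classical target of cyclic AMP, dropped from between 9.32 and 11.17 (median 10.62) to between 5.54 and 5.61 (median 5.58) and was at least 14.0-fold lower. Later values of both genes bound their level only from above.

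Cytokine genes made up part of the other falls. Il6, which encodes interleukin-6, went from between 13.24 and 13.74 (median 13.39) to between 10.34 and 11.36 (median 10.97), a difference of -2.55 ± 0.20 or 5.86-fold. Il11 (-2.96 ± 0.17) and Il33 (-2.60 ± 0.33), an interleukin-6 relative and an alarmin of the interleukin-1 family, fell as well, and Il33 missed the test without hours 22 and 46, hours 23 and 47 or hours 25 and 49. Lcn2, which encodes the iron-siderophore binding protein lipocalin-2, fell from between 12.50 and 13.60 (median 13.03) to between 7.74 and 9.86 (median 8.50), a difference of -4.35 ± 0.41. Id1, an inhibitor of bHLH factors (-2.45 ± 0.17), the potassium channel gene Kcnk10 (-2.89 ± 0.19), the Ras-like gene Diras2 (-3.45 ± 0.29) and Trp63, a relative of p53 (-2.66 ± 0.15), fell too. Wfdc21 (-2.44 ± 0.24), which missed the test without hours 25 and 49, and Prg4 (-2.12 ± 0.17), the joint lubricant lubricin, closed the 12.

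**Figure D2:**
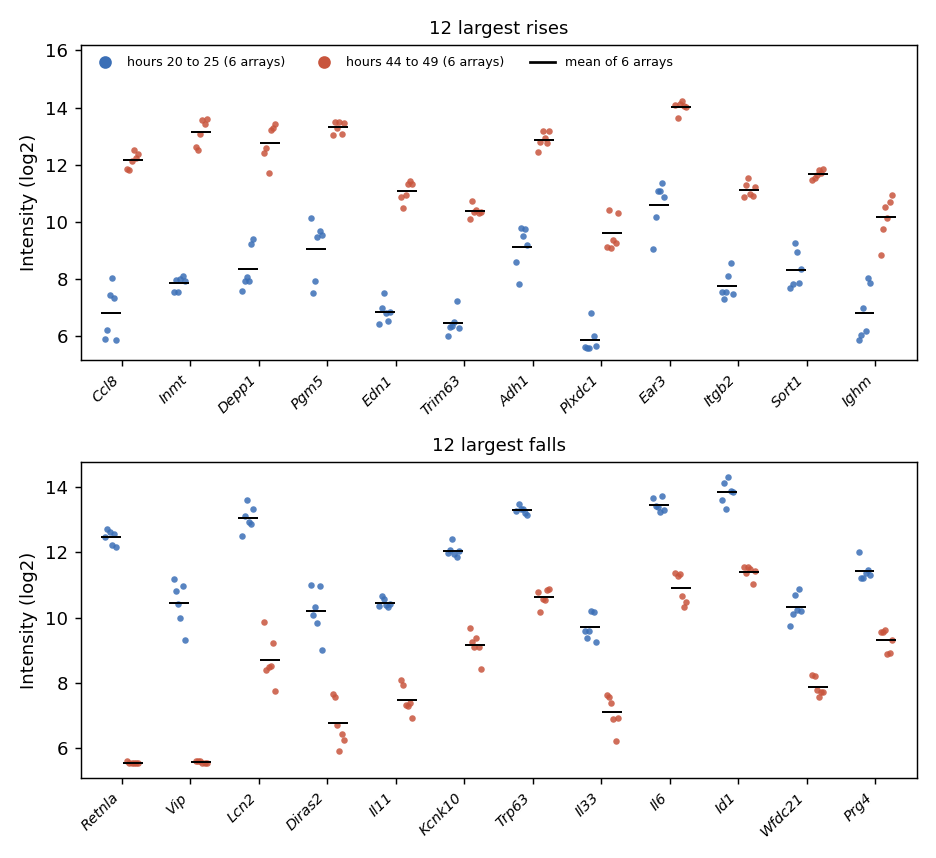
Log2 intensity of the 12 largest rises (top) and 12 largest falls (bottom) at hours 20 to 25 (blue) and hours 44 to 49 (red), with each array as a point and the mean of 6 as a bar. The windows of all 24 genes are apart, and Retnla and Vip lie at the floor, near 5.55 and 5.58, at hours 44 to 49.

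The windows between showed when these genes moved, although they lie at other hours of the cycle. Inmt climbed in every window of 6 h, with means of 7.85, 8.61, 10.31, 12.06 and 13.13 from hours 20 to 25 through hours 44 to 49, and reached 14.89 at hours 62 to 67. Ccl8 rose in the same way, from 6.81 through 8.07, 9.76 and 11.28 to 12.15. Depp1 gained most at the start, from 8.36 to 10.25 at hours 26 to 31, and had means of 13.63 and 13.62 in the last windows. Retnla fell through 11.24, 9.69 and 7.2 before it reached 5.56, and Vip was near the floor by hours 38 to 43, at 5.69. Lcn2 held its level at hours 26 to 31 (13.14 against 13.06) and declined from there in every window to 5.90 at the end. These means describe single courses and were not tested.

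**Figure D3:**
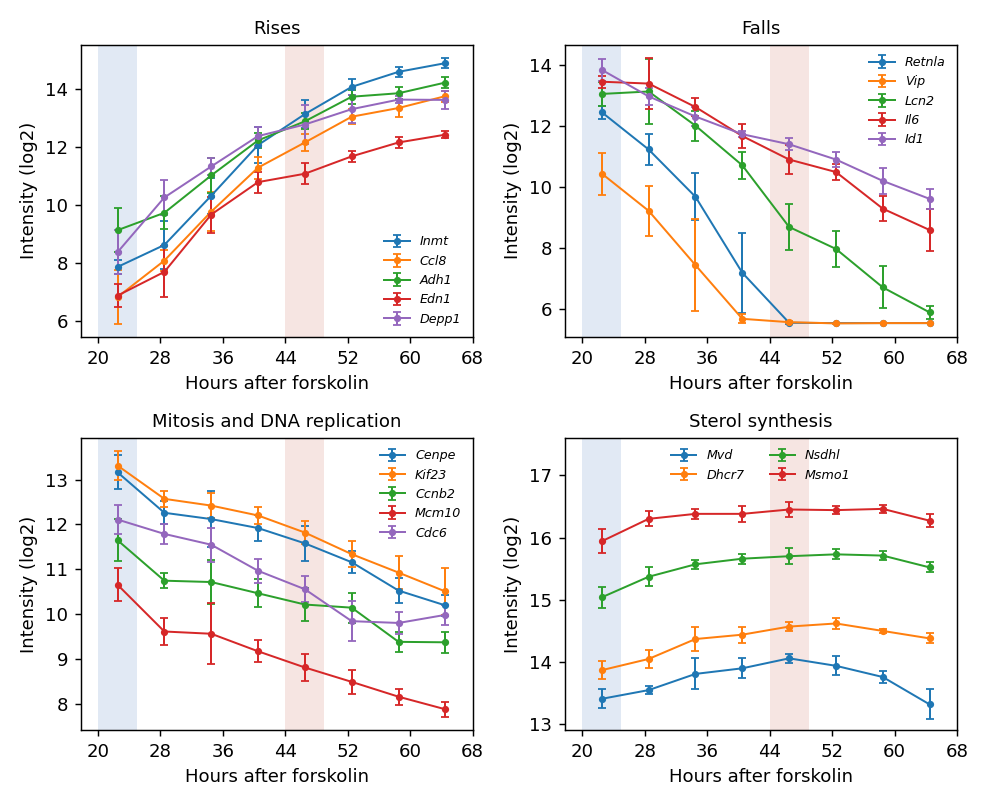
Mean log2 intensity in 8 windows of 6 h against hours after forskolin, with the SD over 6 arrays as bars, for selected rises, falls, cell cycle genes and sterol genes. The shaded windows are hours 20 to 25 and 44 to 49. Inmt and Ccl8 climb throughout, Retnla and Vip reach the floor, and Mvd returns to its starting level at the end.

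Most mitosis genes fell. Of 29 mitosis genes, which encode the kinases, motors and kinetochore proteins of chromosome segregation, 22 were lower at hours 44 to 49 and none was higher, and 28 were lower in all 6 pairs. Their median difference was -0.96. The shares over all genes tested were 2.7% lower and 3.08% higher, and over genes above the median probe set 4.53% and 5.33%. Cenpe, the kinetochore motor, went from between 12.80 and 13.86 (median 13.15) to between 11.08 and 12.22 (median 11.54), by -1.58 ± 0.20 or 2.99-fold. Kif23, a motor of cytokinesis, went from between 12.97 and 13.91 (median 13.25) to between 11.57 and 12.28 (median 11.77), by -1.49 ± 0.16. The windows of both genes did not overlap. Ndc80 (-1.38 ± 0.12), Ccnb2 (-1.43 ± 0.24), Plk1 (-1.26), Aurkb (-1.03), Cdc20 (-0.89) and Cdk1 (-0.50) also fell, while Cenpf (-1.39), Kif20a (-1.14), Aurka (-1.06), Mki67 (-0.96), Nek2 (-0.95), Foxm1 (-0.81) and Bub3 (-0.17) had negative differences that did not pass. Ccnb2 missed the test whenever a pair was left out, Cenpe without hours 22 and 46 or any later pair, and Kif23 without hours 23 and 47 or 25 and 49. In RNA from whole dishes, fewer dividing cells and less RNA of these genes per cell cannot be told apart.

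Of 33 DNA replication genes measured, 17 were lower and none was higher, with a median of -0.55, and 25 were lower in all 6 pairs. The shares over genes above the median probe set were 4.53% lower and 5.33% higher. Mcm10, which loads polymerase at origins, was between 10.23 and 11.29 (median 10.58) and then between 8.45 and 9.29 (median 8.85), a difference of -1.84 ± 0.16. Cdc6, which loads the MCM helicase, fell by 1.56 ± 0.18 and Mcm5, a subunit of that helicase, by 1.14 ± 0.13. Tk1, the thymidine kinase of S phase, lay in a narrow range of 14.55 to 14.76 (median 14.58) and then of 13.51 to 13.64 (median 13.59), by -1.04 ± 0.04 (adjusted p = 0.000961). The transcription factor gene E2f1 differed by -0.03 and did not pass. Cdc6 missed the test without hours 23 and 47 or 25 and 49, and Mcm5 without hours 24 and 48 or 25 and 49. With 5 pairs the number of mitosis genes past the test was 11 to 19 and that of replication genes 9 to 15, the lowest without hours 25 and 49 and, for mitosis, also without hours 23 and 47, and with the spread of all 48 arrays 29 and 29 were lower.

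Promoter stretches are printed for some of these genes to show the cell cycle motifs searched in them. RefSeq promoters of 250 bases before to 50 after each start site (GRCm38.p6) were at hand for 14452 of the 18193 genes tested. The cell cycle homology region, CHR, was searched as TTTGAA and the CCAAT box as CCAAT, each on both strands, and CHR letters were found for 18 of 24 mitosis genes with a promoter and CCAAT letters for 19 (79.2%). Over all genes the shares were 15.7% and 42.0%, and among DNA replication genes CHR letters were found for 4 of 27 (14.8%). The E2F letters TTTCGCGC or TTTGGCGC, also on both strands, were found for 10 of 27 replication genes (37.0%), 1 of 24 mitosis genes and 1.45% of all genes. Of all 32851 promoters of this length in the table, 17.9% hold the CHR letters, 37.4% the CCAAT letters and 0.813% the E2F letters. Each stretch below is 30 bases, written 5′ to 3′ on the gene's own strand, with the CHR letters in capitals for Cdc20, Kif23 and Ccnb2 and the E2F letters in capitals for Mcm5 and Uhrf1.
Cdc20 (chr4:118437343-118437372, minus strand): gacagttgggtTTTGAAggagccaatgaac
Kif23 (chr9:61946779-61946808, minus strand): tgattggcctgTTTGAAatgcgccgggcgg
Ccnb2 (chr9:70421703-70421732, minus strand): agggactagaaTTTGAAaataagactgtag
Mcm5 (chr8:75109345-75109374, plus strand): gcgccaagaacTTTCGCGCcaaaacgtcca
Uhrf1 (chr17:56304117-56304146, plus strand): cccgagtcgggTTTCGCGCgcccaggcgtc

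In Cdc20 and Kif23 a CCAAT box, read on either strand, lies in the same 30 bases as the CHR letters, which begin at position -18 and at position 2 from the annotated start. The printed CHR letters of Ccnb2 begin at position -167. Another CHR match of Ccnb2, not printed, begins at position 4, and its CCAAT letters begin at positions -21, -54 and -87. Over all genes that passed the test, CHR letters were found for 20.2% of the 396 that fell and 14.7% of the 429 that rose and had a promoter, and E2F letters for 5.56% and 1.4%. The E-box CACGTG, the site of the clock activators, stood in the promoters of 16.8% of the genes that rose, 10.9% of those that fell and 10.2% of all. The cyclic AMP response element TGACGTCA, a palindrome, stood in 1.63%, 5.30% and 2.92%. A match is a description of letters in this window, and none of these shares was tested.

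Growth regulators next to the cell cycle changed in part. Gadd45a, a growth arrest and stress gene, rose from between 13.75 and 14.22 (median 13.92) to between 15.13 and 15.53 (median 15.37), by 1.38 ± 0.08. Of the 25 genes of growth arrest and quiescence, 4 rose (Gadd45a, Selenop, Pik3ip1 and Klf9), Btg2 fell by 0.55 ± 0.08 and 20 did not pass, beside 3.08% higher and 2.7% lower over all genes. The shares over genes above the median probe set were 5.33% and 4.53%. Among those 20 were the CDK inhibitor genes Cdkn1a (-0.06), Cdkn1b (0.17) and Cdkn1c (0.00). In each window 3 of the 25 lay below their array's median on every array. Genes of ribosome biogenesis, which supply growing cells with ribosomes, held 5 that fell of 26, led by Dkc1 (-0.54 ± 0.07) and Nop2 (-0.49 ± 0.04), and none that rose. Their median was -0.27, and 3 fell when each array was centred on its median. Without hours 20 and 44, 23 and 47, 24 and 48 or 25 and 49 only 1 of the 26 passed, and 2 passed without hours 22 and 46. Btg2 passed with 5 pairs only without hours 20 and 44.

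Early response genes, the transient targets of growth factors and cyclic AMP, were lower where they moved. Of 24 immediate early genes 7 fell and none rose, with a median of -0.29, beside 2.7% lower and 3.08% higher over all genes. The shares over genes above the median probe set were 4.53% and 5.33%. Egr3, a zinc finger factor, went from between 13.37 and 13.70 (median 13.48) to between 11.92 and 12.75 (median 12.36), by -1.16 ± 0.13. Junb (-1.12 ± 0.16) and Fosl1 (-0.92 ± 0.10), subunits of AP-1, fell, and so did the matrix-associated growth factor Ccn2 (-1.03 ± 0.13) and Srf (-0.31 ± 0.04), the factor that binds serum response elements. The mean of Junb over all 48 arrays, 6.51, was below the median probe set (6.671). The other Fosl1 probe set above that median did not pass. Fos (-1.06), Myc (-0.78), Ier2 (-0.70), Jun (-0.03) and Egr1 (0.08) did not pass. With 5 pairs 2 to 6 of the 24 passed, the fewest without hours 25 and 49. Junb and Srf missed it without any of 4 pairs, Ccn2 without any of 3, Fosl1 without hours 23 and 47 or 25 and 49, and Egr3 without hours 25 and 49.

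Targets and regulators of cyclic AMP went both ways. Of 24 measured, 5 fell and 3 rose, beside 4.53% lower and 5.33% higher over genes above the median probe set. Besides Vip, the growth factor gene Ereg fell from between 14.15 and 14.63 (median 14.33) to between 12.79 and 13.42 (median 13.08), by 1.26 ± 0.11, and Ptgs2 (-0.99), which encodes cyclooxygenase-2, the nuclear receptor gene Nr4a2 (-0.92) and Rgs2 (-0.60), a brake on G protein signalling, fell with it. Nr4a1 (-1.51, adjusted p = 0.0525), Nr4a3 (-0.81), Atf3 (-0.93) and Crem (-0.33) did not pass. Adcy7, itself an adenylyl cyclase, rose from between 10.37 and 11.16 (median 11.09) to between 12.60 and 12.98 (median 12.77), by 1.82 ± 0.14, and Ppargc1a, the coactivator PGC-1α, by 1.30 ± 0.07. Akap12, a scaffold of protein kinase A, rose by 0.53. Among MAP kinase feedback genes Phlda1 (-0.98 ± 0.09) and Dusp6 (-0.78 ± 0.07) fell and Dusp10 (0.47 ± 0.08) rose, of 18, and Dusp10 missed the test whenever a pair was left out. Of other probe sets above the median probe set, that of Dusp10 did not pass, and 1 of 2 of Adcy7 passed as higher.

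The Id genes, which respond to BMP signals, fell as a family. Id1 was between 13.34 and 14.32 (median 13.87) and then between 11.03 and 11.56 (median 11.45), and Id3 went from between 15.80 and 16.69 (median 16.32) to between 14.68 and 15.12 (median 14.87), by -1.39 ± 0.15. Id2 (-0.93 ± 0.06) and Id4 (-0.40) passed as well. With Tgfbi (-1.34 ± 0.13), a matrix protein induced by TGF-β, they were the 5 that fell of 27 genes of TGF-β and BMP signalling, and Pmepa1, an inhibitor of the pathway, was the 1 that rose (0.56). The shares over genes above the median probe set were 4.53% lower and 5.33% higher, and 1 rise of 27 is near the latter. The ligand genes Bmp4 (0.00), Tgfb1 (-0.02) and Tgfb2 (0.81) did not pass. Of the 27 genes, 7 lay below their array's median on every array of the earlier window and 8 on every array of the later one. Id3 and Tgfbi missed the test without hours 25 and 49, when 3 of the 27 fell.

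Inflammatory genes were divided. Beside each count here stand the shares over genes above the median probe set, 5.33% higher and 4.53% lower. Of 26 chemokine, cytokine and NF-kB genes 6 fell, Il11, Il33, Il6, the neutrophil chemokines Cxcl1 (-1.52) and Cxcl5 (-0.80), and Sod2 (-0.26), and 2 rose, Ccl8 and Cxcl12 (0.36). Nfkbia (-0.01), Tnfaip3 (-0.06) and Icam1 (0.00), feedback and target genes of NF-kB, did not pass. In each window 5 of the 26 lay below their array's median on every array. Of 26 interferon and antigen presentation genes 6 rose and 1 fell. Ifit3, an interferon-induced RNA-binding protein, rose from between 6.51 and 8.22 (median 7.15) to between 9.48 and 10.65 (median 10.00), by 2.81 ± 0.44, and Bst2, the virus tether tetherin, by 1.19 ± 0.18. Usp18, which removes ISG15, fell by 1.27 ± 0.07, and Irf7, Mx1 and Oas1a had differences of 0.00, 0.04 and 0.00. In each window 8 of these 26 genes lay below their array's median on every array, where a difference near 0 does not show steady expression. H2-K1 (0.34) and H2-D1 (0.37) rose, but their near-identical sequences leave the split between them uncertain. The count of 6 was 0 to 3 when a pair was left out and 0 without hours 25 and 49. Of 14 acute phase and complement genes 2 rose and 2 fell, with Saa3 higher by 1.31 ± 0.18 and Hp lower by 0.57 ± 0.09. Saa3 missed the test whenever a pair was left out, Hp with any but hours 21 and 45 left out, and Ifit3 and Bst2 with any of 5 pairs left out.

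The list of retinoid, alcohol and steroid metabolism held some of the largest rises. It counts Inmt, a methyltransferase of amines. Of 21 genes, 8 rose and 2 fell, beside 5.33% higher and 4.53% lower over genes above the median probe set. Beside Inmt and Adh1, the aldehyde dehydrogenase genes Aldh1a7 (2.15 ± 0.11), Aldh1a1 (1.64) and Aldh3a1 (1.48) rose, as did Adh7 (1.09), the retinaldehyde reductase gene Dhrs3 (2.15 ± 0.38) and Crabp2 (1.37), which carries retinoic acid to its receptor. Aldh1a7 went from between 10.34 and 11.37 (median 10.80) to between 12.75 and 13.15 (median 12.96). Cyp26b1, which breaks down retinoic acid, fell by 1.92, and Cyp1b1 by 0.51. The list's median was 0.01, and 8 of its members lay below the array medians in both windows. Dhrs3 missed the test when any pair but hours 21 and 45 was left out.

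Of 28 genes of the lysosome and autophagy, 11 were higher and none lower, beside 3.08% and 2.7% of all genes. The shares over genes above the median probe set were 5.33% and 4.53%. The list's median was 0.28, and 25 had a positive difference. Neu1, the lysosomal sialidase, went from between 12.58 and 13.23 (median 13.03) to between 14.03 and 14.36 (median 14.30), by 1.30 ± 0.10. Ctsk (1.33 ± 0.19), a cathepsin that cleaves collagen, Man2b1 (0.91 ± 0.09), a mannosidase, and Npc1 (0.70 ± 0.11), a cholesterol exporter, rose as well, with Gla (0.64), Ctsd (0.45), Hexa (0.42), Ctsl (0.24), Lamp2 (0.23), Npc2 (0.16) and Ctsb (0.15). The autophagy genes Map1lc3a (-0.05), Sqstm1 (0.28) and Ulk1 (-0.09) did not pass. With 5 pairs 5 to 10 passed, the fewest without hours 25 and 49. Npc1 missed the test without any of 5 pairs and Ctsk without any of 4.

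Some sterol synthesis genes rose. The pathway makes cholesterol from acetyl-CoA through mevalonate and is controlled by SREBP factors, which sense the sterol content of the cell. Of 25 sterol and fatty acid synthesis genes 10 were higher at hours 44 to 49 and none was lower, 23 had a positive difference, and the median was 0.35. The shares over genes above the median probe set were 5.33% higher and 4.53% lower. Dhcr7, the last enzyme of the pathway, went from between 13.65 and 14.02 (median 13.88) to between 14.49 and 14.67 (median 14.58), by 0.71 ± 0.06. Mvd, mevalonate diphosphate decarboxylase, went from between 13.26 and 13.63 (median 13.37) to between 13.98 and 14.16 (median 14.03), by 0.65 ± 0.08. Nsdhl (0.66 ± 0.09), Msmo1 (0.52 ± 0.09), Mvk (0.48), Insig1 (0.41), Fads1 (0.38), Idi1 (0.31), Cyp51 (0.24) and Acly (0.12) made up the rest, and Fasn (0.23), Hmgcs1 (0.11), Scd1 (-0.04) and Srebf1 (-0.24) did not pass. With 5 pairs 4 to 9 passed, the fewest without hours 25 and 49. Msmo1 missed the test without any of 5 pairs, Nsdhl without any of 4 and Mvd without hours 20 and 44 or 25 and 49.

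To ask whether the last day of the course brought the same change, the shift was set against that between hours 38 to 43 and hours 62 to 67, which shares no array with it. Hours 38 to 43 begin 18 h after hours 20 to 25, so the shifts lie at different hours of the cycle, and the place in the cycle and the day of the course cannot be told apart. In that late shift 2.92% of all genes were higher and 4.01% lower. The late calls and standard errors came from a fit to the arrays of both shifts, with a shared spread. The early ones came from the arrays of the early shift alone. These tests differ in power, so early and late counts and standard errors are not directly comparable. Of the 1051 genes that passed in the early shift, 954 had the same sign in the late one, 251 of the 560 that rose passed there as higher and 315 of the 491 that fell as lower. The median difference of the genes that rose was 0.57 early and 0.21 late, and that of the genes that fell was -0.60 and -0.38. Since these genes were chosen for their early difference, the early medians are a description. The difference between the shifts itself passed limma's interaction test for 704 probe sets (1.56%) and 408 genes (2.24%), of which 285 genes had passed in the early shift. The number of probe sets was 228 to 603 when a position was left out of both shifts, and moved beyond 1.5-fold without positions 2, 3, 4, 5 or 6 (354, 324, 250, 368 and 228). It was 1218 without the block, 2598 with the β-actin difference in the fit, 11844 without moderation, 13993 with a robust prior and 6 without high β-actin pairs. Of the 11844 and the 13993, only 1153 and 1256 had a more positive early shift. Both settings also called genes near the floor, such as 5 and 6 of the 8 epithelial markers. These 2 counts are therefore no measure of how many expressed genes differed.

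The sterol genes stood at 17 of 25 past the interaction test. All 17 differed in the direction of a higher early shift, as 22 of the 25 had a negative late difference and the median went from 0.35 to -0.15. Mvd differed by 0.65 ± 0.08 in the early shift and by -0.57 ± 0.10 in the late one (interaction 1.22, adjusted p = 0.00297), and its mean returned to 13.32 at hours 62 to 67 against 13.41 at the start. Mvk went from 0.48 to -0.60, Idi1 from 0.31 to -0.37 and Cyp51 from 0.24 to -0.30. Without single positions 10 to 15 of the 25 passed, and 21 passed when the fit also held the β-actin difference. When pairs with a β-actin difference over 1.4 were left out, which kept 5 pairs of both shifts, none passed, and the test then called 6 probe sets in all.

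Genes of mitosis fell in both shifts. Their median was -0.96 in the early and -1.06 in the late shift, and 1 passed the interaction test. In the late shift 28 of 29 passed as lower, by the fit to both shifts, so this count is not directly comparable with the early one. Cenpe fell by 1.58 ± 0.20 in the early and 1.72 ± 0.16 in the late shift, and Kif23 by 1.49 ± 0.16 and 1.68 ± 0.17, over spans that overlap in time. Of the largest rises, 11 of 12 passed the interaction test, with Plxdc1 as the exception (3.72 and 2.55). They were chosen for a large early difference, which favours a larger early shift, so the count is a description. Depp1 rose by 4.41 early and 1.24 late, and Itgb2 by 3.37 and 0.68. Lysosomal genes had medians of 0.28 and 0.05, and 4 passed the interaction test (2 to 5 without single positions, 11 without the block, 12 with the β-actin difference in the fit, 13 without moderation, 15 with a robust prior and 0 without high β-actin pairs), Neu1 (1.30 and 0.41) and Man2b1 (0.91 and 0.21) among them. Of the largest falls Retnla, Vip and Il11 passed it, but Vip was near the floor and Retnla at 7.2 when the late shift began. Lcn2 differed by -4.35 early and -4.82 late, and Il6 by -2.55 and -3.08, without passing it.

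**Figure D4:**
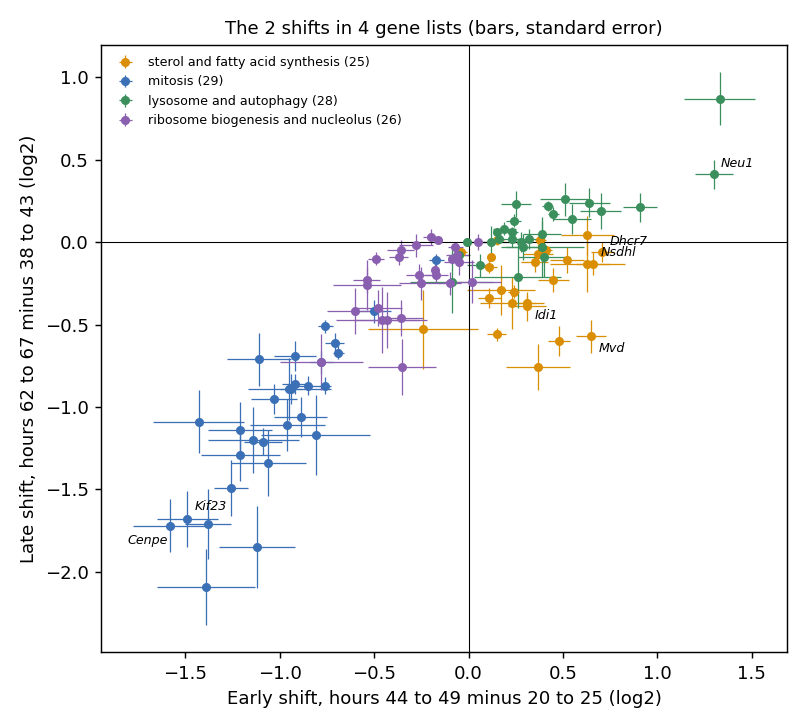
Late shift (hours 62 to 67 minus hours 38 to 43) against early shift (hours 44 to 49 minus hours 20 to 25), both log2, for the genes of 4 lists (sterol synthesis orange, mitosis blue, lysosome green, ribosome biogenesis purple), with standard errors as bars. Mitosis genes lie below 0 on both axes, whereas most sterol genes lie right of 0 and below 0, Mvd at 0.65 and -0.57.

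Of 32 collagen and fibrillar matrix genes 2 rose and 3 fell. The shares over genes above the median probe set were 5.33% higher and 4.53% lower. Small counts in this list and the other lists of this paragraph were not tested against these shares. The microfibril gene Mfap4 went from between 8.94 and 9.02 (median 8.95) to between 10.54 and 11.60 (median 11.11), by 2.14 ± 0.15, and the fibrillin gene Fbn2 fell by 1.46 ± 0.08, whereas Col1a1 (0.04), Col3a1 (0.13) and Fn1 (-0.11) did not pass. Of 20 matrix proteases and inhibitors, Mmp11 (1.58 ± 0.15), Mmp14 (0.91 ± 0.03), Adamts5 (0.47) and Timp2 (0.25) rose and Timp1 (-0.86 ± 0.12) and Plaur (-0.50 ± 0.06) fell. Ogn was the 1 of 11 small leucine-rich proteoglycans that rose, by 0.98 ± 0.08. Of 22 interleukin and growth factor genes 3 rose and 3 fell, and Igf1 rose from between 13.61 and 14.26 (median 14.04) to between 14.94 and 15.48 (median 15.32), by 1.25 ± 0.14, and Angpt1 by 0.45 ± 0.05. Of 18 IGF binding proteins and receptors 3 rose and 1 fell, and Igfbp5 rose by 1.01 ± 0.14 and Igfbp7 fell by 0.60 ± 0.01. Of 19 adipogenic and lipid handling genes 3 rose and 2 fell. Apod, a lipid carrier, rose by 1.51 ± 0.13 and Angptl4, an inhibitor of lipoprotein lipase, fell by 1.51 ± 0.10. Fabp4, the fatty acid binding protein of adipocytes, rose by 0.79 ± 0.04, while of the other 5 adipocyte markers Adipoq, Lep and Cidec stayed at the floor in both windows, between means of 5.39 and 5.53, and Retn (-0.75 ± 0.23) and Lipe (-0.32 ± 0.26) did not pass. Timp1, Plaur and Igfbp5 missed the test without any of 4 pairs, Igf1 without hours 23 and 47 or 25 and 49, and Angpt1 without hours 25 and 49.

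Of 22 genes of the integrated stress response and amino acid supply, Nupr1 (1.13 ± 0.11), Ddit3 (0.59 ± 0.05), Atf5 (0.52 ± 0.07) and Phgdh (0.26) rose and Cth (-0.89 ± 0.05) fell, and Atf4 (0.09) did not pass. Of 17 NRF2 targets 3 rose, Gsta4, Osgin1 and Hmox1 (0.59 ± 0.07, 0.57 ± 0.07 and 0.40 ± 0.05), and 2 fell, with Nqo1 at -0.72 ± 0.02. Osgin1 and Atf5 missed the test without any of 5 pairs, Gsta4 without any of 3, Hmox1 without hours 23 and 47 or 25 and 49, and Nupr1 without hours 25 and 49. Of 26 SRF targets and contractile genes 2 fell, of 17 CCN and YAP/TEAD targets 1 rose and 2 fell, and of 26 genes of glycolysis and hypoxia Adm (0.76) rose and Pfkfb3 (-0.66) and Ldha (-0.22) fell. Of 16 p53 targets 1 rose and 1 fell, and of 14 heat shock chaperones Cryab (0.75) rose, counts near the shares of 5.33% higher and 4.53% lower over genes above the median probe set. The same shares stand beside the other lists of this paragraph, and none of these counts was tested against them. No member passed among 22 unfolded protein response genes, 25 oxidative phosphorylation genes, 21 cytosolic ribosomal proteins, 24 proteasome subunits and 21 Wnt genes, and the medians of these lists lay between -0.04 and 0.00. Of the 21 Wnt genes only 7 had a mean above the median probe set. In each window 14 of them lay below their array's median on every array, so their median near 0 does not show steady expression.

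**Figure D5:**
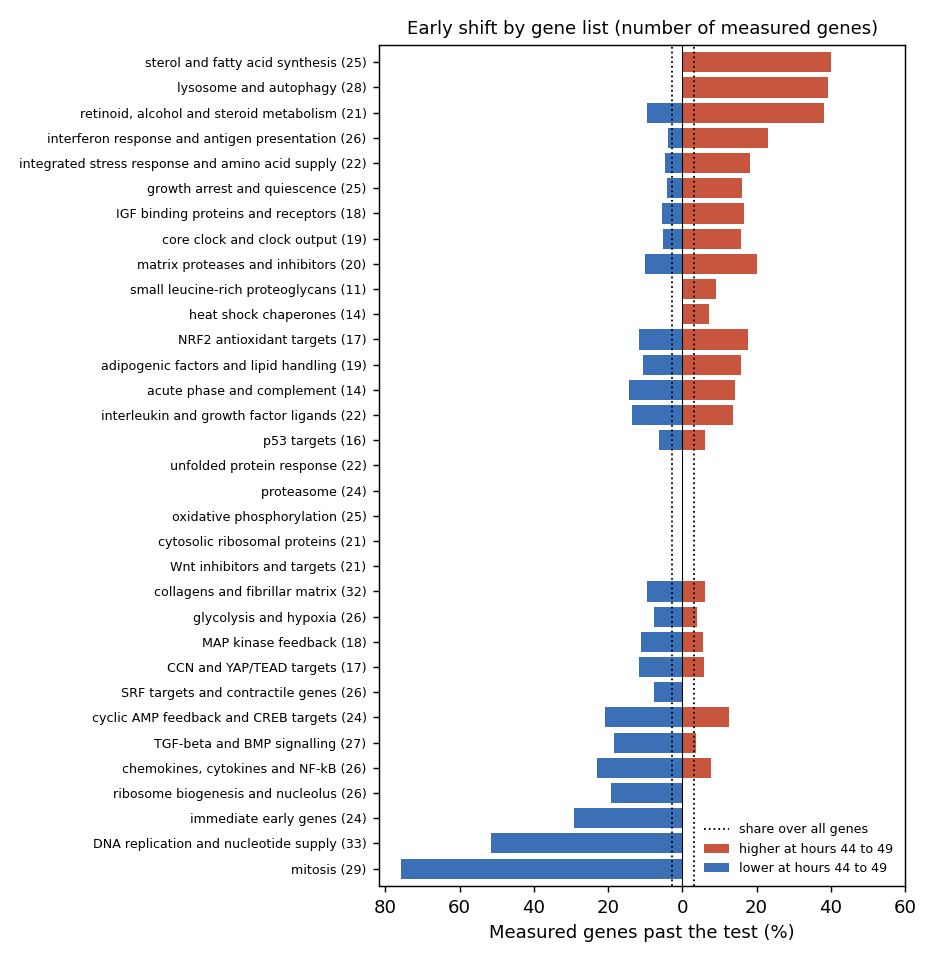
Share of the measured genes of each list (number in brackets) that passed the test as higher (red, right) or lower (blue, left) at hours 44 to 49. The dotted lines are the shares over all genes, 3.08% and 2.7%. Mitosis and DNA replication reach farthest to the left, and sterol synthesis, the lysosome and the list of retinoid, alcohol and steroid metabolism farthest to the right.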

How the data were processed

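RNA from 48 dishes was hybridised to Affymetrix mouse expression arrays. The deposited values are linear intensities that the authors made, by the methods, with GCRMA and MAS5 calls; the labels' processing notes name MAS5, and their versions are not given in these sources. The log2 of each deposited intensity was taken here without a constant. After 64 control probe sets were left out, 45037 were tested, of which 34945 had 1 gene symbol, 932 several and 9160 none.

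The paired shift was fitted with limma 3.58.1 (R 4.3.3), with the pair 24 h apart as a block from the design of the comparison. The deviations of paired arrays from their window means correlated between -0.697 and 0.688, above 0.1 in 2 of 6 pairs. The late shift and the interaction were fitted on 24 arrays. A value below its array's median on all 6 arrays of a window was taken as a bound. The scripts were tested on simulated data. Precision is limited by the number of arrays.

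Named were the 12 largest rises and falls past the test whose mean exceeded the median probe set and whose direction was the same in 6 pairs, up to 4 members of each of 33 gene lists and 7 marker lists with the largest difference past the test, and 11 clock genes. Other list members were named after their values were seen. The members and lists were chosen with earlier results of these data known. Alternatives covered normalization, filter, block, β-actin, moderation, lags of 23 and 25 h, the arrays fitted and each pair left out.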

Additional observations from a re-analysis of the deposited data

Results flagged for a closer look

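In 8 named genes the difference of 1 pair stood far from the other 5 relative to the range of the 6. About 1 in 20 sets of values is expected to do so by chance. The pair of hours 44 and 20 stood at 5.03 for Ear3 and at 0.96 for Msmo1. The pair of hours 45 and 21 stood at 2.51 for Adcy7, 0.36 for Igf2r, 1.02 for Dhcr7 and -0.17 for Dkc1. Neu1 stood at 1.79 in hours 46 and 22, and Ifit2 at 0.39 in hours 48 and 24.

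For 45 named genes the early shift differed from the late one by limma's interaction test, and the values are the early minus the late difference on the log2 scale. The largest rises were chosen for a large early difference, which favours a larger early shift, and differed by 3.17 for Depp1, 3.03 for Pgm5, 2.87 for Ccl8, 2.85 for Trim63, 2.69 for Itgb2, 2.57 for Edn1, 2.44 for Inmt, 2.26 for Ear3, 2.10 for Ighm, 1.86 for Sort1 and 1.76 for Adh1. The largest falls, chosen in the same way, differed by -5.25 for Retnla, -4.73 for Vip and -1.40 for Il11, with Vip near the floor when the late shift began.

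In the sterol list Mvd differed by 1.22, Nsdhl by 0.79, Dhcr7 by 0.77 and Msmo1 by 0.63. Lipid carriers and enzymes differed as well, Apod by 1.19, Aldh1a7 by 1.09, Abca1 by -0.50 and Fabp4 by 0.40. Neu1 (0.90) and Man2b1 (0.70) were the lysosomal genes.

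Among secreted and matrix genes the values were 1.67 for Saa3, 1.00 for Ccn3, 0.82 for Hp, 0.82 for Igfbp5, 0.56 for Mmp14, 0.57 for Adm, 0.24 for C1s1 and -0.23 for Igfbp7. Signalling and transcription genes gave 1.07 for Adcy7, 0.64 for Ppargc1a, 0.43 for Rora, -0.41 for Id2 and -0.84 for Junb. Stress and growth genes gave 0.74 for Osgin1, 0.46 for Ddit3, 0.43 for Trp53inp1, 0.43 for Pik3ip1, 0.36 for Hmox1, 0.36 for Cth, 0.25 for Selenop and -0.38 for Nop2.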

How the results depend on the processing

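All directions of the 112 genes chosen by the naming rule that passed were kept in every alternative that tested them (a filter on low probe sets left out 2). Where pairs were left out this was fixed in advance, since all 6 pairs of each gene went the same way. The counts are for the early same-phase shift, past 1.5-fold where stated. Without the replicate block 1794 probe sets were higher and 1698 lower, 1424 passed 1.5-fold and 1218 passed the interaction, and 1 of the 112 genes missed the test. With the β-actin difference in the fit the counts were 1630 and 1495, with 2598 past the interaction. With high β-actin pairs left out they were 0, 0 and 0 past 1.5-fold, with 6604 at an unadjusted p under 0.05 in limma, and 6 past the interaction, on 2 pairs and 5 pairs. Without moderation there were 632 and 571, with 11844 past the interaction, and with a trended robust prior 13993 passed it, both with probe sets near the floor among them. Pairs 25 h apart gave 1643 and 1523, and the fit to 48 arrays 2850, 2990 and 1813 past 1.5-fold. Leaving out a pair gave 322 to 809 higher, 298 to 812 lower, 398 to 846 past 1.5-fold and 228 to 603 past the interaction. Centring on array medians raised the share of calls that were higher from 52.5% to 58.3%. Clock genes near 0 changed sign. Nr1d2 was -0.01 with high β-actin pairs left out, -0.01 at 23 h, 0 at 25 h and -0.02 to 0.06 without single pairs (the lowest without replicate 1). Per2 was -0.33 with those pairs left out and -0.07 at 23 h, and -0.15 to 0.12 without single pairs, with -0.02, -0.15 and -0.01 without replicates 1, 2 and 3. Cry2 was -0.22 to 0.07 without single pairs, with 0.01, 0.07 and 0.01 without replicates 4, 5 and 6. The cause of these changes was not tested, beyond the fewer pairs fitted.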

Other observations

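A small set of genes passed the test in both shifts with opposite directions, 11 in all, besides passing the interaction test. Of these, 10 were higher in the early shift and lower in the late one, and all are named with the early difference before the late. The mevalonate and sterol enzymes Mvd (0.65 and -0.57), Mvk (0.48 and -0.60), Idi1 (0.31 and -0.37) and Cyp51 (0.24 and -0.30) were joined by Slc25a1, the mitochondrial citrate carrier (0.49 and -0.31), and Acly, which cleaves citrate to acetyl-CoA (0.12 and -0.09). Foxred2, an oxidoreductase of the endoplasmic reticulum, stood at 0.47 and -0.65, the water channel gene Aqp5 at 0.82 and -0.36 and the ephrin gene Efna1 at 0.23 and -0.29. Zfand1 stood at 0.06 and -0.14, and Tcim went the other way, at -0.51 and 0.19.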
